A study of Mus musculus with 6 samples.

Results

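The S100 genes encode small calcium-binding proteins with a pair of EF-hand loops, which bind calcium and then attach to partner proteins. In muscle the best known is S100A1, which acts on the calcium release channel and the calcium pump of the sarcoplasmic reticulum. Others mark cells that lie between the fibres, such as S100A8 and S100A9 in myeloid cells, S100A4 in fibroblasts and leukocytes, and S100B in Schwann cells. The transcripts of 9 S100 genes were followed, S100a1, S100a4, S100a6, S100a8, S100a9, S100a10, S100a11, S100a13 and S100b. A probe set, the group of short oligonucleotides that reads a transcript on the array, was counted as a member when the platform annotation gave it a single gene symbol and that symbol was among the 9. This gave 11 probe sets of 22690 in the table, for 8 of the 12393 genes with such a probe set, with 2 probe sets each for S100a1, S100a10 and S100b. S100a11 had no such probe set, since the one that reads it also carries the symbols of a pseudogene and of a predicted gene, and its values are given apart.

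Total RNA came from muscle of C57BL/6 wild-type mice, 1 month old per the labels. In 3 samples the muscle was injected with an adeno-associated virus (AAV) vector expressing murine TFEB (labelled Tcfeb), and in 3 others with an AAV vector expressing green fluorescent protein (GFP). These are called TFEB-injected and GFP control below, with 1 Affymetrix array per sample and the replicate numbers of the labels. The labels speak of biological replicates and the study's text of mice given either vector, so each array was taken to be a separate mouse. The study's text speaks of adult mice and of a CMV promoter, which is active in many cell types, in both vectors. Whether the labelled age is that at injection or at sampling, which the study's text sets weeks apart, is not known here. The sources used here do not name the muscle of the arrays, while the study's legends name gastrocnemius for other assays of muscle given the TFEB vector. The values are log2 and each difference is TFEB-injected minus GFP control. To pass the threshold, a probe set needed an adjusted p under 0.05 together with a change of 1.5-fold or more (0.585 on the log2 scale). The p-values are those of limma, fitted over 22626 probe sets with Benjamini-Hochberg adjustment.

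The arrays of a group were not equally alike. GFP control replicate 2 differed more than 2-fold from the other GFP controls at 844 and 725 probe sets, whereas the other GFP controls differed from each other at 87 and the TFEB-injected arrays among themselves at 45 to 101. S100 probe sets whose call changed without that array are given with and without it. Without that array 2428 of all 22626 probe sets were higher and 1794 lower by the threshold, against 1700 and 1382 with all arrays. The single Tfeb probe set was lower in the TFEB-injected arrays (log2 fold change -0.77 ± 0.097 SE, adjusted p = 0.0024), against the direction of the delivery. Whether its probes fall within the injected cDNA is unknown here, so the labels stand unchecked by it, and each group is named for what was injected. For beta-actin, the difference of the 3′ from the 5′ probe set was 0.22 to 0.34 in TFEB-injected arrays and 0.037 to 0.077 in GFP controls. The part of this sign of RNA quality in the results below was not tested. The defining genes of the labelled tissue were bright, with the 12 measured fast fibre genes at mean log2 values of 13.4 to 14.2.

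S100 transcripts were higher in TFEB-injected muscle at 5 of 11 probe sets, those of S100a8, S100a13, S100a6, S100a9 and one of S100a1, and lower at 0. Over the whole array 13.6% of probe sets passed, 7.51% as higher and 6.11% as lower. At an unadjusted p under 0.05, 7 S100 probe sets were higher and 1 was lower. The share over all probe sets at that limit was not computed, so such counts, here and in the lists below, have no background beside them. By the methods' t-test, which the study's general statistics name and which was run on each probe set, after Benjamini-Hochberg adjustment 4 were higher and 0 lower. Of all 22626 probe sets 1181 were higher and 1082 lower by that test with the same limits. The median log2 fold change of the 11 probe sets was 0.59, against -0.064 over all probe sets. All TFEB-injected arrays lay above all GFP controls at 7 of the 11 (20.1% of all probe sets), and below them at 1 (29.7% of all probe sets). In bulk tissue, more cells of a type and more RNA per cell cannot be told apart, here and below.

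**Figure D1:**
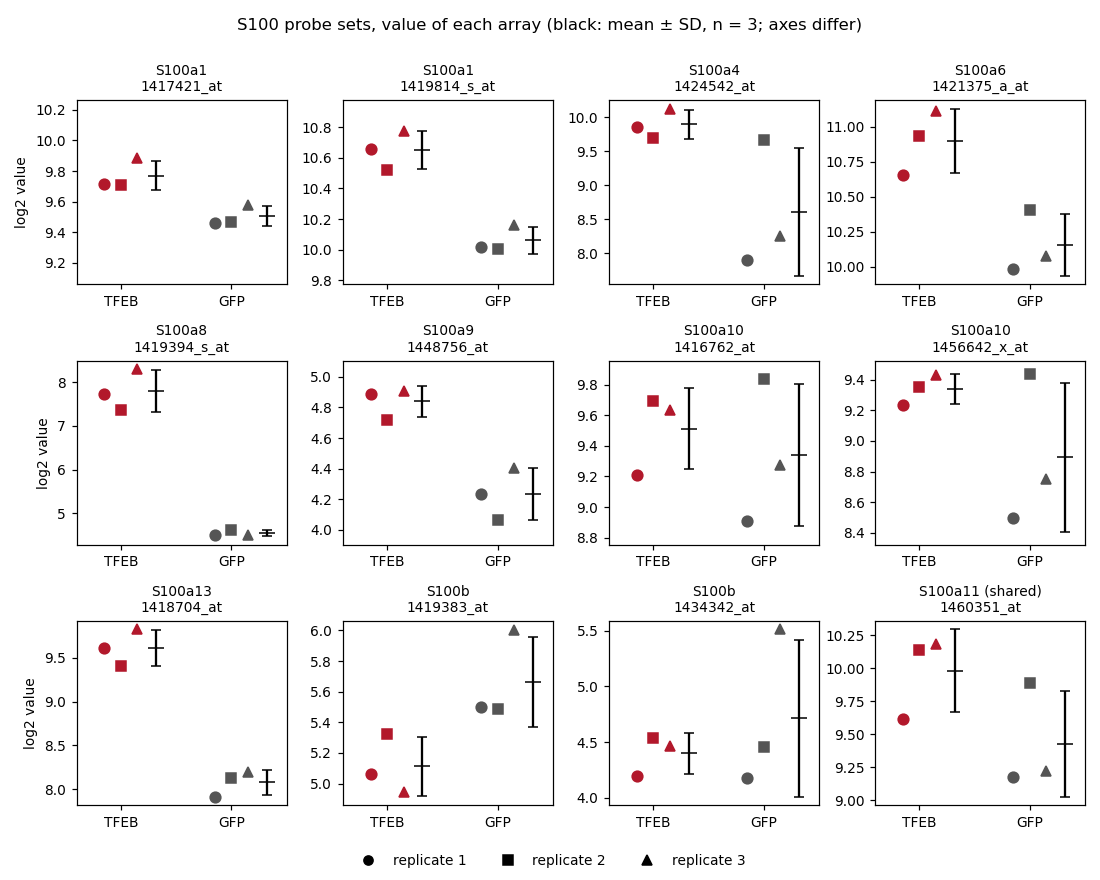
Each panel shows the log2 value of 1 S100 probe set in the 3 TFEB-injected arrays (red, left) and the 3 GFP control arrays (grey, right), where symbols tell the replicates apart and black marks the mean ± SD (n = 3). The vertical axes differ, and the last panel is the probe set that S100a11 shares with other symbols. The S100a8 values lie between 7.36 and 8.30 in TFEB-injected arrays, all above the GFP controls, while GFP control replicate 2 lies at 9.67 for S100a4, just under the TFEB-injected arrays, and is the highest of all arrays for both probe sets of S100a10.

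S100a8 showed the largest difference of the 11 probe sets. Its product joins S100A9 to form calprotectin, a protein that neutrophils and monocytes hold in quantity, that binds zinc and manganese, and that signals through TLR4 once released. S100a8 had log2 values of 7.73, 7.36 and 8.30 in TFEB-injected replicates 1, 2 and 3, against 4.50, 4.62 and 4.51 in the GFP controls. No array of one group came near the other, and GFP control replicate 2 was like the other controls. The log2 fold change was 3.25 ± 0.22 (SE, n = 3 and 3, adjusted p = 0.00049), or 9.51-fold. In the GFP controls the signal was dim, since only 23.2% of probe sets had a lower mean, and folds from such values are imprecise. With 1 array left out the log2 fold change ran from 3.00 to 3.47.

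S100a9, the partner of S100a8 in calprotectin, differed far less. It had log2 values of 4.89, 4.72 and 4.91 in TFEB-injected arrays, against 4.23, 4.07 and 4.40 in GFP controls. The groups did not overlap, but every array was dim, and even the TFEB-injected mean of 4.84 ± 0.10 (SD, n = 3) exceeded that of only 27.5% of probe sets. The log2 fold change of 0.60 ± 0.11 (SE, adjusted p = 0.0073) lay just above the fold limit. It was under that limit without GFP control replicate 2 (0.52), without TFEB-injected replicate 1 (0.58) or replicate 3 (0.57), with all arrays shifted to equal medians (0.54) and with arrays weighted by how well they fit their group (array weights, 0.54).

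The starts of these genes are shown because S100a8 and S100a9 are neighbours on chromosome 3, read from opposite strands, and differed in size of change. The sequences are those of RefSeq on GRCm38.p6, from 130 bases before the annotated gene start to 30 bases into the transcript, 5′ to 3′, with TATAAA, the letters of the classic TATA box, in capitals. S100a4, another gene of the cluster, is given with them.
S100a8, chr3:90668941-90669100, plus strand: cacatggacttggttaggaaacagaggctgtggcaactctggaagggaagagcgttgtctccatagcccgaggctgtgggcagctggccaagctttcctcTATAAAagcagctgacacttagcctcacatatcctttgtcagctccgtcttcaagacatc
S100a9, chr3:90695692-90695851, minus strand: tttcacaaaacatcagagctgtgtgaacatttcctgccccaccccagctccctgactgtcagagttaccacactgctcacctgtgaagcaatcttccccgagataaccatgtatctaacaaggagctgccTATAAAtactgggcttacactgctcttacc
S100a4, chr3:90603640-90603799, plus strand: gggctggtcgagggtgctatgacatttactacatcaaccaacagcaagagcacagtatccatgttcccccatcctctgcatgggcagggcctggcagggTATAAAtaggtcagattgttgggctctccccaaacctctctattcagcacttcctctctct
The motif begins 30 bases before the annotated start in S100a8 and 31 bases before it in S100a4, and at the annotated start itself in S100a9. TATAAA, searched on both strands after the sequences had been seen, stood in 3 of 8 windows of the S100 genes and in 13.6% of all 32851 windows of 300 bases.

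Neutrophil markers, read beside S100a8 and S100a9, did not pass in either direction. Of 12 measured markers 0 were higher and 0 lower by limma, where 8.62% of all genes were higher and 4.9% lower. At an unadjusted p under 0.05, 1 was higher and 2 lower, with 0 by the methods' t-test after adjustment. Of the 12, 5 had a mean under 5 and the brightest had a mean of 6.03, which limits what the list shows. The log2 of their summed level ran from 8.51 to 8.62 in TFEB-injected arrays and from 8.61 to 8.64 in GFP controls. Camp, the gene of the antimicrobial peptide cathelicidin, had the smallest p of the list (log2 fold change -0.37 ± 0.083 SE, adjusted p = 0.016), under the fold limit. Padi4, named after its values were seen, went the other way without overlap (0.43 ± 0.12 SE, adjusted p = 0.031), also under the fold limit. Of the 12 markers 4 had a positive difference. The granule genes Mpo and Mmp8, also named after their values were seen, were dim in both groups, with means of 3.55 and 3.48 in TFEB-injected arrays and 3.71 and 3.58 in GFP controls. The 3 bacterial control probe sets for TrpnX, which no mouse transcript should bind, had means of 2.64 to 2.94.

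Macrophage markers were mostly high in TFEB-injected muscle and also in 1 GFP control. Of 18 genes 1 passed as higher and 0 as lower, where 8.62% of all genes were higher and 4.9% lower. This was Cd68, a lysosomal glycoprotein of macrophages, with log2 values of 9.63, 9.69 and 9.84 in TFEB-injected arrays and 6.19, 8.34 and 6.46 in GFP controls (log2 fold change 2.73 ± 0.53 SE, adjusted p = 0.010). Cd68 missed the methods' t-test after adjustment (0.062), which left 0 markers passing in either direction. The log2 of the summed marker level was 13.07, 13.95 and 13.93 in TFEB-injected replicates 1, 2 and 3, against 11.46, 13.99 and 11.63 in GFP controls. GFP control replicate 2 thus reached the level of the TFEB-injected arrays. Without it 17 of the 18 markers passed as higher, where 2428 of all 22626 probe sets did. Over all arrays Itgam (0.047) and Cd163 (-0.00066), named after their values were seen, differed least between the groups. In GFP control replicate 2 the S100a8 value of 4.62 lay within 0.12 of the mean of the other controls.

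**Figure D2:**
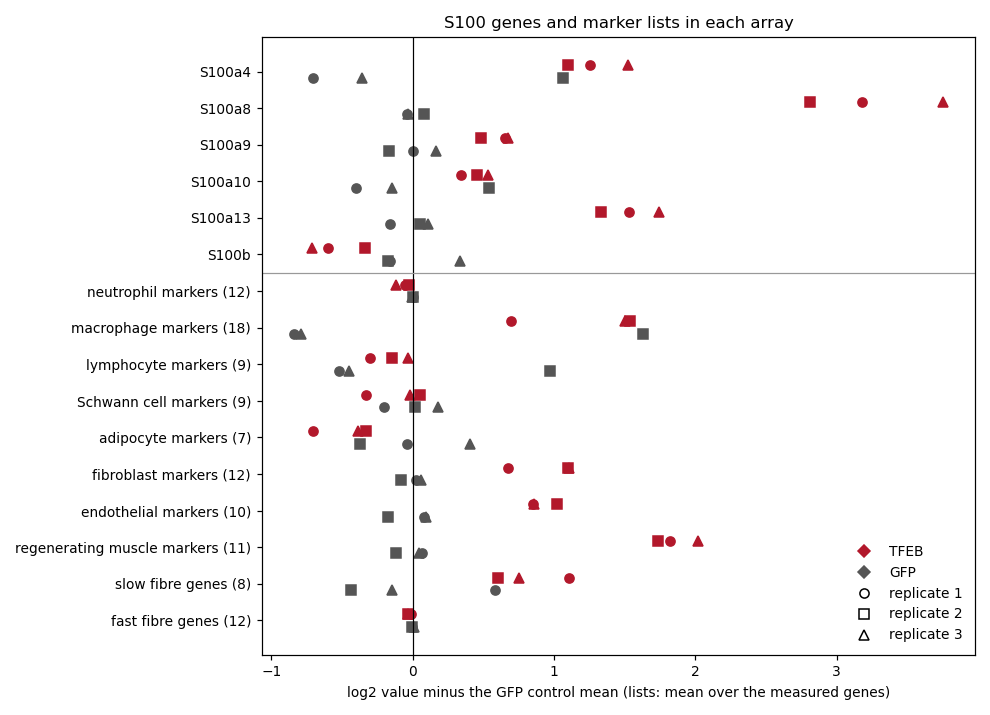
Log2 values minus the GFP control mean are shown for 6 S100 genes (top) and for 10 marker lists as the mean over the measured genes, whose number stands in brackets (bottom), with TFEB-injected arrays in red, GFP control arrays in grey and the replicate given by the symbol. S100a10 is shown by 1456642_x_at, while its brighter probe set 1416762_at differed less between groups, and S100b is shown by 1419383_at. GFP control replicate 2 lies at 1.63 for the macrophage list and at 0.97 for the lymphocyte list, and the neutrophil list lies within 0.12 of 0 in every array.

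S100a4 (also called fibroblast-specific protein and metastasin), which binds non-muscle myosin, separated the groups without passing the test. Its log2 values were 9.86, 9.70 and 10.13 in TFEB-injected arrays, against 7.90, 9.67 and 8.25 in GFP controls. GFP control replicate 2 lay just under the lowest TFEB-injected array and 1.60 above the mean of the other controls. The log2 fold change was 1.29 ± 0.43 (SE, adjusted p = 0.061), with a 95% interval of 0.26 to 2.32. Without GFP control replicate 2 it was 1.82 (adjusted p = 0.00035), and with array weights 1.60 (adjusted p = 0.0073), both past the threshold.

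S100a10, which encodes p11, the S100 protein that does not bind calcium and holds annexin A2 at the membrane, showed the same array standing out. The probe set 1416762_at had log2 values of 9.21, 9.70 and 9.63 in TFEB-injected arrays, against 8.91, 9.84 and 9.28 in GFP controls. The groups overlapped, with the highest value in GFP control replicate 2 (log2 fold change 0.17 ± 0.25 SE, adjusted p = 0.62, 95% interval -0.41 to 0.76). Its other probe set, 1456642_x_at, had 9.23, 9.35 and 9.43 in TFEB-injected arrays, against 8.50, 9.44 and 8.75 in GFP controls. This one gave 0.45 ± 0.23 (SE, adjusted p = 0.18, 95% interval -0.10 to 0.99). Without GFP control replicate 2 it was 0.72 (adjusted p = 0.0027), past the threshold, as it was with array weights (0.61, adjusted p = 0.028), and 1416762_at was 0.42 (adjusted p = 0.097), which did not pass.

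S100a11, whose protein binds annexin A1 and takes part in membrane repair, was read only by a probe set that also carries the symbols S100a11-ps and Gm12854, so the transcripts cannot be told apart. The shared probe set had log2 values of 9.62, 10.14 and 10.19 in TFEB-injected arrays, against 9.17, 9.89 and 9.22 in GFP controls. Again GFP control replicate 2 lay among the TFEB-injected arrays, and the log2 fold change of 0.55 ± 0.24 (SE, adjusted p = 0.12, 95% interval -0.0091 to 1.11) did not pass. Without that array it was 0.78 (adjusted p = 0.011), past the threshold.

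S100a6, which encodes calcyclin, a protein of fibroblasts and of dividing cells that binds annexins and the ubiquitin ligase adaptor CacyBP, rose. Its log2 values were 10.66, 10.93 and 11.11 in TFEB-injected arrays, against 9.98, 10.40 and 10.08 in GFP controls. The groups did not overlap, and GFP control replicate 2 was the highest control. The log2 fold change was 0.75 ± 0.15 (SE, adjusted p = 0.012), or 1.68-fold, and 0.87 without GFP control replicate 2. The gene start is shown because CACGTG, the E-box core that TFEB is known to bind in lysosomal genes, stands in it, in capitals.
S100a6, chr3:90612764-90612923, plus strand: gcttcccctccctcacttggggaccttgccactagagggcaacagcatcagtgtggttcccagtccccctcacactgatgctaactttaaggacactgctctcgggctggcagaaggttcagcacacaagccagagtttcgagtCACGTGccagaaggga
The motif begins at base 15 of the transcript, counted from 1 at the annotated start. CACGTG, which reads the same on both strands, stood in 2 of the 8 windows of the S100 genes, those of S100a6 and S100a11, and in 7.15% of all windows. The longer TCACGTGA stood in 0 of the 8 and in 0.974% of all windows. RefSeq's table held no window for S100a10.

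S100a13 had the second largest difference of the S100 probe sets that passed. Its protein binds copper and helps to export FGF1 and interleukin 1 alpha, which lack a signal peptide. S100a13 had log2 values of 9.61, 9.41 and 9.82 in TFEB-injected arrays, against 7.91, 8.13 and 8.19 in GFP controls. The groups lay far apart relative to their spread, with means of 9.61 ± 0.21 and 8.08 ± 0.14 (SD, n = 3 each). The log2 fold change was 1.53 ± 0.13 (SE, adjusted p = 0.00082), or 2.90-fold, and with 1 array left out it ran from 1.43 to 1.64. Among the cargo genes, Fgf1 gave -0.03 ± 0.12 (SE, adjusted p = 0.86) and Il1a -0.07 ± 0.13 (SE, adjusted p = 0.68), neither past the threshold.

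S100a1, the S100 gene of striated muscle, was higher by a small amount. The probe set 1419814_s_at had log2 values of 10.65, 10.52 and 10.78 in TFEB-injected arrays, against 10.02, 10.003 and 10.16 in GFP controls. The groups did not overlap, and the log2 fold change of 0.59 ± 0.092 (SE, adjusted p = 0.0047) lay at the fold limit. The probe set 1417421_at had 9.72, 9.71 and 9.88 in TFEB-injected arrays, against 9.46, 9.47 and 9.58 in GFP controls. It also did not overlap but gave only 0.27 ± 0.080 (SE, adjusted p = 0.044, 95% interval 0.075 to 0.46), under the fold limit. The mean of both probe sets gave 0.43, and 1419814_s_at was under the limit without GFP control replicate 1 (0.57), GFP control replicate 2 (0.56) or TFEB-injected replicate 3 (0.53), as with equal medians (0.52) and array weights (0.56). Among genes of S100A1 targets in the sarcoplasmic reticulum, Ryr1, Atp2a1 and Atp2a2 did not pass over the 6 arrays. Ryr1, the calcium release channel, gave -0.52 ± 0.16 (SE, adjusted p = 0.049), under the fold limit, and Atp2a1, the calcium pump of fast fibres, -0.05 ± 0.062 (SE, adjusted p = 0.58). Atp2a2, the pump of slow fibres and heart, named after its values were seen, had 12.10, 11.94 and 11.89 in TFEB-injected arrays, against 11.92, 11.01 and 11.13 in GFP controls (0.62 ± 0.23 SE, adjusted p = 0.082, 95% interval 0.07 to 1.18). The groups overlapped through GFP control replicate 1, without which Atp2a2 gave 0.91 (adjusted p = 0.0056), past the threshold.

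S100a1 and S100a13 are neighbours that start back to back, and the stretch between their annotated starts is shown for that reason. S100a1 is read from the minus strand and S100a13 from the plus strand, with 104 bases between both starts, which are in capitals.
S100a13, chr3:90514305-90514464, plus strand: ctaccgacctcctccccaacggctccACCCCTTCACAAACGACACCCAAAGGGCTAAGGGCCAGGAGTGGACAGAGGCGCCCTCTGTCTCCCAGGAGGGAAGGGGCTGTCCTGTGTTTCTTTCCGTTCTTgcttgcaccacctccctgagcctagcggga
Neither CACGTG nor TATAAA occurred in the 300-base window of either gene. The log2 fold changes of this pair were 1.53 for S100a13, and 0.59 and 0.27 for the probe sets of S100a1, whose 95% interval upper bounds of 0.81 and 0.46 lay under the lower bound of 1.23 for S100a13.

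S100b, the S100 gene of Schwann cells that adipocytes also express, was the only one of the 8 genes with lower values in TFEB-injected muscle. Its probe set 1419383_at had log2 values of 5.07, 5.32 and 4.95 in TFEB-injected arrays, against 5.50, 5.49 and 6.00 in GFP controls. The groups did not overlap, and the log2 fold change of -0.55 ± 0.17 (SE, adjusted p = 0.045) was just under the fold limit. It passed without GFP control replicate 2 (-0.64), with equal medians (-0.62) and with array weights (-0.62). The other probe set, 1434342_at, was dim and overlapped between groups, with 4.19, 4.54 and 4.46 in TFEB-injected arrays, against 4.18, 4.45 and 5.51 in GFP controls. Its log2 fold change of -0.32 ± 0.33 (SE, adjusted p = 0.49, 95% interval -1.10 to 0.47) rested on GFP control replicate 3, without which it was 0.082.

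Markers of the cells that hold S100B were read beside it. Of 9 Schwann cell markers 1 was higher and 0 lower by limma, where 8.62% of all genes were higher and 4.9% lower. At an unadjusted p under 0.05, 2 were higher and 3 lower, with 0 in either direction by the methods' t-test after adjustment. Without GFP control replicate 2, and likewise with equal medians, 1 Schwann cell marker passed as lower. The marker that passed as higher over all arrays was Egr2, the transcription factor gene of myelination (log2 fold change 0.76 ± 0.24 SE, adjusted p = 0.047). Egr2 missed the threshold without any one array other than GFP control replicate 2, with an adjusted p of up to 0.145. The other higher marker at the unadjusted limit was Erbb3 (0.49 ± 0.11 SE, adjusted p = 0.016), under the fold limit. The 3 lower were Mag, Mal and Mbp, named with Erbb3 after their values were seen, and none passed over all arrays. Mag gave -0.41 ± 0.11 (SE, adjusted p = 0.028) and Mal -0.67 ± 0.23 (SE, adjusted p = 0.064), both without overlap. Mbp gave -1.005 ± 0.41 (SE, adjusted p = 0.102), with overlap. Of 7 adipocyte markers 0 passed by limma or by the methods' t-test after adjustment, with 1 higher and 4 lower at an unadjusted p under 0.05, and the smallest p was that of the fatty acid carrier gene Fabp4 (0.38 ± 0.12 SE, adjusted p = 0.045). Fabp4 was the 1 adipocyte marker of 7 with a positive difference, and the median of the list was -0.38. Adipoq, the gene of the adipocyte hormone adiponectin, named after its values were seen, had 6.73, 7.99 and 7.90 in TFEB-injected arrays, against 8.69, 8.04 and 9.45 in GFP controls (-1.19 ± 0.45 SE, adjusted p = 0.084). Without GFP control replicate 2, 3 adipocyte markers passed as lower. The log2 of the summed level ran from 10.69 to 11.34 in TFEB-injected arrays and from 11.05 to 11.83 in GFP controls for Schwann cell markers, and from 12.24 to 12.39 in TFEB-injected arrays and from 11.84 to 12.40 in GFP controls for adipocyte markers, a sum in which the bright Fabp4 weighs most. The part of either cell type in the S100b values was not tested.

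On the mouse chromosomes most S100 genes lie together, and the size of the changes differed along the row. From S100a1 to S100a9, 12 S100 genes follow each other on chromosome 3 with no other protein-coding gene between them in RefSeq's annotation of GRCm38.p6. Of these, S100a1, S100a13, S100a16, S100a4, S100a6, S100a8 and S100a9 were higher in all TFEB-injected arrays than in all GFP controls. Over the whole array 20.1% of probe sets were so. The measured S100a14, S100a3 and S100a5 were not, but their signals were dim, which limits what they show. S100a11 and S100a10 are neighbours further along, and S100b lies on chromosome 10. Of the 5 further S100 genes with a probe set, 1 rose and 0 fell (8.62% of all genes were higher and 4.9% lower), with 1 higher and 1 lower at an unadjusted p under 0.05, and 1 higher and 0 lower by the methods' t-test after adjustment. S100a16, which lies between S100a14 and S100a3, had log2 values of 10.03, 9.97 and 10.09 in TFEB-injected arrays, against 9.46, 9.41 and 9.40 in GFP controls (0.61 ± 0.068 SE, adjusted p = 0.0017). It fell under the fold limit with equal medians (0.54) and without TFEB-injected replicate 3 (0.57).

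The other 4 were dim, each with a mean under 5. S100a5, which lies between S100a4 and S100a6, had 4.33, 4.34 and 4.32 in TFEB-injected arrays, against 4.46, 4.71 and 4.72 in GFP controls (-0.30 ± 0.090 SE, adjusted p = 0.044, under the fold limit). S100a14 gave -0.52 ± 0.36 (SE, adjusted p = 0.29), with GFP control replicate 1 highest at 5.50, and passed only without GFP control replicate 2 (-0.86). S100a3 gave -0.02 ± 0.070 (SE, adjusted p = 0.82), and S100g on the X chromosome -0.10 ± 0.11 (SE, adjusted p = 0.50).

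**Figure D3:**
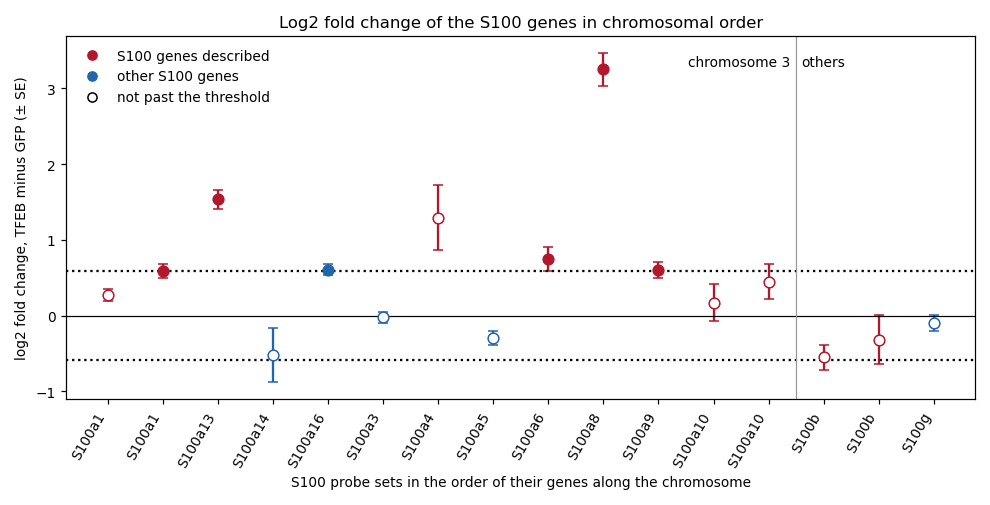
The log2 fold change of TFEB-injected minus GFP control (± SE, n = 3 and 3) is shown for each S100 probe set in the order of the genes along chromosome 3, followed by S100b and S100g on other chromosomes. Dotted lines mark 1.5-fold in either direction, filled points passed the threshold, and red and blue tell the genes described from the other S100 genes. S100a8 at 3.25 and S100a13 at 1.53 stand next to genes with smaller changes.

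Among genes of proteins that bind S100 proteins, 7 of 24 intracellular partners rose and 0 fell by limma. Of all genes 13.5% passed, 8.62% as higher and 4.9% as lower. The median log2 fold change of the partners was -0.04 and their mean 0.24, against a median of -0.046 over all genes. At an unadjusted p under 0.05, 10 partners were higher and 4 lower, and by the methods' t-test after adjustment 5 were higher and 0 lower.

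The 4 of smallest p were Plat, Cald1, Stk38 and Anxa1. Plat encodes tissue plasminogen activator, which p11 and annexin A2 bind at the cell surface, and had log2 values of 7.81, 8.003 and 7.94 in TFEB-injected arrays, against 6.70, 6.66 and 6.62 in GFP controls (1.26 ± 0.077 SE, adjusted p = 0.00042). The actin-binding caldesmon gene Cald1 rose 2.14-fold and Stk38, a kinase that S100B activates, rose 1.61-fold. Under the alternative settings the log2 fold change of Cald1 was as low as 0.74, still past the threshold. Anxa1, the partner of S100A11, rose 1.62-fold (0.69 ± 0.12 SE, adjusted p = 0.0065).

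The remaining 3, named after their values were seen, were Ctsb, Anxa2 and Myh9. Anxa2, the partner of S100A10, had log2 values of 10.74, 11.04 and 11.20 in TFEB-injected arrays, against 9.75, 10.62 and 9.82 in GFP controls. GFP control replicate 2 was the highest control here too (0.93 ± 0.25 SE, adjusted p = 0.029). When GFP control replicate 1 or 3 or TFEB-injected replicate 2 or 3 was left out, Anxa2 missed the adjusted p (up to 0.099), and the mean of its probe sets gave 0.35. Myh9, the non-muscle myosin that S100A4 binds, gave 0.77 ± 0.22 (SE, adjusted p = 0.036) and missed the adjusted p without any one of the same arrays (up to 0.11). Ctsb, a lysosomal cathepsin, rose 1.95-fold (adjusted p = 0.0078), with a log2 fold change as low as 0.65 under the alternative settings, still past the threshold.

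Of 9 receptor genes 1 rose and 0 fell by limma, where 8.62% of all genes were higher and 4.9% lower. By the methods' t-test after adjustment, and at an unadjusted p under 0.05, 1 was likewise higher and 0 lower. This was Mcam, an adhesion molecule of endothelium and muscle described as a receptor of S100A8 and S100A9, with log2 values of 8.28, 8.20 and 8.43 in TFEB-injected arrays, against 7.27, 6.83 and 7.32 in GFP controls (1.16 ± 0.14 SE, adjusted p = 0.0023). Ager, which encodes RAGE, gave 0.04 ± 0.11 (SE, adjusted p = 0.81), and Tlr4 0.32 ± 0.18 (SE, adjusted p = 0.21). The median of the receptor list was 0.05.

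Of 29 other EF-hand genes measured, 4 rose and 2 fell by limma, where 8.62% of all genes were higher and 4.9% lower. At an unadjusted p under 0.05, 13 were higher and 5 lower, with 2 and 2 by the methods' t-test after adjustment. The list had a median of 0.27 on the log2 scale. Sparc, a matrix glycoprotein, rose 2.28-fold (1.19 ± 0.12 SE, adjusted p = 0.0013) and Cib1, a calcium- and integrin-binding protein, 1.91-fold (adjusted p = 0.0044), though the mean of the Cib1 probe sets gave 0.41. Rcn3, a protein of the secretory pathway (0.59, adjusted p = 0.028), lay at the limit and passed only without TFEB-injected replicate 1 when an array was left out. The neuronal calcium sensor gene Hpcal1 (0.88, adjusted p = 0.039) passed only without GFP control replicate 2 when an array was left out. Gca, which encodes grancalcin of granulocytes and macrophages, had log2 values of 6.29, 6.03 and 6.07 in TFEB-injected arrays, against 6.73, 6.88 and 6.84 in GFP controls (-0.69 ± 0.095 SE, adjusted p = 0.0033), and the mean of its probe sets gave -0.47. Capn3, the muscle calpain, fell 1.57-fold (-0.65 ± 0.10 SE, adjusted p = 0.0048).

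**Figure D4:**
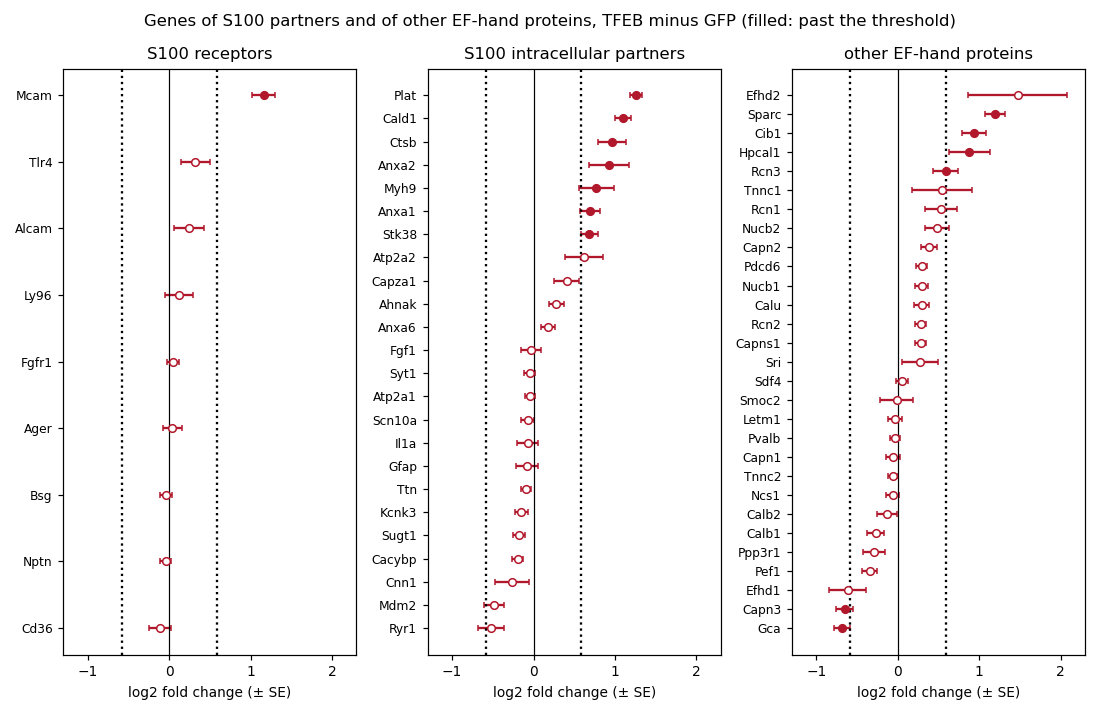
Log2 fold changes of TFEB-injected minus GFP control (± SE, n = 3 and 3) are shown for 9 genes of S100 receptors, 24 of intracellular S100 partners and 29 of other EF-hand proteins. Dotted lines mark 1.5-fold and filled points passed the threshold. Mcam at 1.16 stands apart among the receptors, and Plat at 1.26 leads the partners.

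Markers of the further cell types known to express S100 genes moved with the groups. Over all genes 8.62% were higher and 4.9% lower. Of 12 fibroblast markers 7 rose and 0 fell, with the smallest p at the collagen genes Col3a1 (3.11-fold), Col1a1 (4.81-fold) and Col1a2 (2.39-fold). The log2 of their summed level ran from 14.62 to 14.96 in TFEB-injected arrays and from 13.81 to 13.95 in GFP controls. Of 10 endothelial markers 7 rose and 0 fell, with the smallest p at Esam (2.10-fold), Tie1 (2.93-fold) and Cldn5 (2.49-fold), with summed levels of 11.79 to 11.96 in TFEB-injected arrays and 10.77 to 11.02 in GFP controls. Of 11 genes of regenerating muscle 7 rose and 0 fell, with the smallest p at Myh8 (20.4-fold), Chrna1 (5.36-fold) and Myog (11.1-fold) and the largest fold at embryonic myosin Myh3 (52.7-fold), named after its values were seen, with summed levels of 12.43 to 13.02 in TFEB-injected arrays and 9.79 to 9.95 in GFP controls. Chrnd (0.26), Pax7 (0.26), Myod1 (0.17) and Cdh15 (0.10) of the regenerating muscle list, also named after their values were seen, did not pass. At an unadjusted p under 0.05 none of these 3 lists held a lower gene, nor by the methods' t-test after adjustment. The part of these cells, or of the fibres themselves, in the values of S100a4, S100a6 and S100a13 was not tested.

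Of the fibre lists, the slow list held 2 genes that rose and 0 that fell of 8, where 8.62% of all genes were higher and 4.9% lower. The 2 were Casq2, which stores calcium (5.33-fold), and the slow troponin gene Tnni1 (2.85-fold). Tnni1 missed the adjusted p with GFP control replicate 3 or TFEB-injected replicate 1 or 3 left out (up to 0.067). Without GFP control replicate 1, 4 of the slow fibre genes passed as higher, where 1457 of all 22626 probe sets did. Their summed level ran from 14.31 to 14.85 in TFEB-injected arrays and from 13.51 to 14.55 in GFP controls, and their part in the S100a1 values was not tested. Of 12 fast fibre genes 0 passed by limma or by the methods' t-test after adjustment, with 1 higher and 1 lower at an unadjusted p under 0.05, the smallest p being that of the fast myosin gene Myh1 (0.45 ± 0.089 SE, adjusted p = 0.011), and the summed level was 17.54 to 17.56 in TFEB-injected arrays and 17.58 to 17.60 in GFP controls. Of 9 lymphocyte markers 0 passed by limma or by the methods' t-test after adjustment and 0 at an unadjusted p under 0.05, with Cd79a of B cells closest (-0.22 ± 0.13 SE, adjusted p = 0.23). Their summed level of 9.90 in GFP control replicate 2 lay above the other 5 arrays (8.48 to 8.80 in TFEB-injected arrays, 8.24 and 8.33 in the other controls), and without that array 3 passed as higher.

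The genes whose pattern over the 6 arrays was most like that of an S100 gene were listed for each S100 gene that passed. By Pearson's r, as a description that the group difference dominates, they were Haus8 (0.9996) and Prpsap1 (0.9992) for S100a8, Thrsp (0.996) and Phb2 (0.995) for S100a9, and Plk2 (0.999) and Sox11 (0.998) for S100a13. For S100a6 they were Foxp1 (0.998) and Pdlim4 (0.997), and for S100a1 Tcaf2 (0.999) and Wrnip1 (0.999). No gene was named for more than 1 S100 gene. Among them Sox11, a transcription factor gene of development, differed by 2.57 on the log2 scale (adjusted p = 0.00049), and Plk2, a polo-like kinase gene, 1.46 (adjusted p = 0.00072).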

How the data were processed

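The authors deposited 1 log2 value per probe set and array. The submitters' processing notes name affy and RMA (background correction, quantile normalization, summary per probe set), with no versions. That they are log2 was judged from their range. Quantile normalization partly removes a change shared by most transcripts, and RMA compresses changes of dim and bright probe sets. The precision is set by the number of arrays, which have no read depth.

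Of 22690 probe sets, 64 Affymetrix controls were left out. The platform annotation gave 1 symbol to 20380, several to 691 and none to 1555. Groups came from the sample titles. Differences were fitted with limma 3.58.1 under R 4.3.3 (lmFit and eBayes, two-sided), after the fit had been tested on simulated data. The study's array methods were not among the sources used here. Its gene list legend gave the limits, and its general statistics the methods' t-test. The labels call the samples biological replicates. In the gene lists the brightest probe set on average stood for each of 12393 genes. Summed levels are the log2 of the summed linear values.

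The S100 genes, the lists and the tests were chosen with earlier results of these data known. Named genes are all S100 probe sets with a value, up to 4 per direction of smallest p past the threshold in partner, receptor and EF-hand lists, up to 3 per marker list (otherwise the 1 of smallest p), and the 2 genes of most like pattern for each S100 gene that passed. Alternatives were other scalings, a brightness filter, a trended robust prior, array weights and a replicate block. Further alternatives left each array out, used the t-test with and without adjustment, or took the mean of a gene's probe sets. Promoter windows are RefSeq's, GRCm38.p6. A planned comparison of S100 protein sequences was not run, since no protein table was used here.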

Additional observations from a re-analysis of the deposited data

How the results depend on the processing

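The rise of S100a8 and of S100a13 kept its direction and passed under every alternative run. Of 901 values of named probe sets under alternatives, 825 kept direction and side of the threshold, 61 no longer passed, 10 newly passed and 5 changed sign. Among them are the values of the t-test without adjustment, where the limit was an unadjusted p under 0.05 with the same fold. With equal medians, which put the overall median at -0.13 on the log2 scale (-0.064 as deposited), 3 S100 probe sets were higher and 1 lower (S100b), 1 partner was lower and 0 further S100 genes were higher. Of all 22626 probe sets 1475 were then higher and 1789 lower. Array weights also gave 1 S100 probe set lower, where 2144 of all probe sets were higher and 1625 lower. With 1 array left out, 3 to 5 S100 probe sets were higher, the fewest without TFEB-injected replicate 3, and 0 to 1 lower. The 5 without GFP control replicate 2, and with array weights, were S100a4, S100a6, S100a8, S100a10 (1456642_x_at) and S100a13, not S100a1 or S100a9. With 1 array left out, 1309 to 2428 of all probe sets were higher and 1120 to 1794 lower. Likewise 0 to 1 further S100 genes were higher and 0 to 1 lower, 0 to 1 partners were lower, and 2 to 5 other EF-hand genes were higher and 2 to 3 lower. With the mean of a gene's probe sets, 1 partner and 1 other EF-hand gene were lower. The share of calls that were higher, 55.2% of probe sets as deposited, was 45.2% with equal medians.

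The sign changed for S100a10 (1416762_at, -0.043 without GFP control replicate 1), S100b (1434342_at, -0.58 to 0.082 with 1 array left out, the highest without GFP control replicate 3) and S100a3 (0.038 with fast fibre scaling, 0.056 with repeated quantile normalization, -0.063 to 0.0082 with 1 array left out, the highest without GFP control replicate 2), none of which passed. S100a6 missed the adjusted p by the methods' t-test after adjustment (0.060). Deviations of same-numbered arrays correlated at 0.42, 0.17 and -0.23, not all above 0.1, so the numbers were not taken to pair the arrays, which leaves pairing unsettled. With the replicate block 5 S100 probe sets were higher and 0 lower, where 1686 of all 22626 probe sets were higher and 1366 lower. The cause of these shifts was not tested. Dim signals limit S100a9, S100b and the further S100 genes other than S100a16.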
